A study of Mus musculus with 4 samples.

Results

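The 8 genes described here are regulators of skeletal muscle formation and genes of muscle stem cells (Myod1, Myog, Myf5, Myf6, Pax7, Mef2c, Mymk and Mstn), read in RNA of whole mammary fat pad (MFP). They were found by their symbols among the 55487 genes counted, and each symbol stood on a single row. Of the 8 genes, 6 had enough reads to enter the test of aged against young MFP, while Myf5 and Mymk did not. The libraries came from female C57BL/6J mice, 2 aged (14 months) and 2 young (8 weeks), and the labels name no treatment, transgene or pooling of animals in either age. The study's methods name strain J among the animals used and the NCrl substrain for mice injected with tumour cells. The pads were cut up and lysed whole, so every cell type in or attached to the pad gave RNA, and fewer cells of a type and less RNA per cell cannot be told apart.

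Skeletal muscle forms and is repaired through a short chain of DNA-binding proteins. Pax7 marks satellite cells, the stem cells that lie beneath the sheath of a muscle fibre. Myf5 and Myod1 commit these cells to muscle, Myog drives their differentiation, and Myf6 (also called Mrf4) is the factor of this family that mature fibres keep at a high level. All 4 bind the E-box, a short palindromic DNA element, together with widely expressed E proteins. Mef2c is a partner of these factors that binds an A and T rich element, and it also acts in endothelial cells, B cells and neurons. Mymk encodes myomaker, the membrane protein of myoblast fusion, and Mstn encodes myostatin, a secreted ligand of the TGF-beta family that limits muscle mass.

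The stretches of DNA in front of Myog and Mstn are shown as examples. These stretches hold E-boxes, the element that the factors above bind. Both genes were higher in each aged than in each young library, as were 23.3% of all genes tested. Mef2c met both conditions as well in the scaled values used below, and only its motif counts are given. The RefSeq promoters used here (GRCm38.p6) were matched for 5 of the 8 genes, and not for Myod1, Myf6 and Mymk. Capitals mark each E-box (CANNTG) and each TANNNNTA with A or T at every N, the core of the element that the Mef2 family binds. Both motifs read the same on either strand, and no marked match overlapped another. The 250 bases before the RefSeq start of Myog are chr1:134289754-134290003 and those of Mstn are chr1:53061390-53061639, both on the plus strand.
Myog: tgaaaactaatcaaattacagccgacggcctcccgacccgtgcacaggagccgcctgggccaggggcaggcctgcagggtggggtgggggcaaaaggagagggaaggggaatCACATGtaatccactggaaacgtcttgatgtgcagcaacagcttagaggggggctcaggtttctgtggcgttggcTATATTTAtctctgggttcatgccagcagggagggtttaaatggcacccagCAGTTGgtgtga
Mstn: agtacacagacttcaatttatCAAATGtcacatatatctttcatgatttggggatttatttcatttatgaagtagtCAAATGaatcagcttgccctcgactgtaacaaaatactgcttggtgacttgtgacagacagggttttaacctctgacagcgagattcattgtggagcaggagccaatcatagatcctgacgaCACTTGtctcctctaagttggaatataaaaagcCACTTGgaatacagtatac
Myog held 2 E-boxes, which began 138 and 12 bases before the start, and 1 Mef2 core, which began 63 bases before it. Mstn held 4 E-boxes, the nearest beginning 52 and 19 bases before the start, and 0 Mef2 cores. No E-box or Mef2 core was found in these windows of Myf5 and Pax7 (0 and 0), and the 3 windows of Mef2c held 2, 0 and 1 E-boxes and 1, 0 and 0 Mef2 cores. GENCODE places the start of Myog slightly upstream, so that the last bases shown for Myog lie in its first exon there. In the same 250 bases of all 32851 promoters in the table, 66.2% held at least 1 E-box, 8.6% at least 1 Mef2 core and 5.9% both. A match describes these letters and was not tested as a binding site.

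The libraries held 68803304 to 98402403 reads assigned to genes. Values are given in CPM, counts per 1000000 reads of the library after scaling by the TMM method of edgeR. In these units 3 reads, the smallest number taken here to differ from 0, came to between 0.0337 and 0.0407 CPM, which covers counting error only. The ages were compared by edgeR's quasi-likelihood test over the 22485 genes with enough reads, with Benjamini-Hochberg adjustment over all of them. The young libraries were less alike than the aged libraries: the median gene differed by 0.40 on the log2 scale between the young samples and by 0.23 between the aged samples. Young replicate 1 held much RNA of B cells, with the 4 B cell markers summing to 313 CPM against 1.87 in young replicate 2 and 2.96 and 41.1 in the aged samples. The fat pad itself was present in every library, with Adipoq, which encodes the adipocyte hormone adiponectin, at 1141 and 777 CPM in aged MFP against 531 and 430 CPM in young MFP, and Krt8, a keratin of mammary epithelium, between 251 and 455 CPM. Skeletal muscle RNA was present in every library, and the summed level of 18 markers of muscle fibres was 48937 and 78589 CPM in aged MFP against 12648 and 17551 CPM in young MFP. Of these 18 markers, 17 were higher in both aged than in both young samples, as were 23.3% of all genes tested. Heart muscle markers were near 0, with Nppa at 0 reads in every library, Myl7 at no more than 1 read and Myh6 at no more than 27 reads.

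None of the 8 genes passed an adjusted p of 0.05 in edgeR, and neither did any other gene (0 of 22485, 0%), while 2371 genes had an unadjusted p under 0.05 and DESeq2 called 869 genes. At an unadjusted p under 0.05, 4 of the 8 genes were higher in aged MFP (Myod1, Myog, Pax7 and Mstn), where 7.24% of all genes tested met that mark in the same direction. Of the 2371 genes, 1627 were higher and 744 lower in aged MFP. By total counts without TMM, edgeR gave 2752 genes an unadjusted p under 0.05, of which 1010 were higher and 1742 lower. DESeq2, the tool named in the study's methods, called Myod1 and Mstn higher in aged MFP at an adjusted p of 0.05, while it called 3.24% of the genes it adjusted in that direction. For 6 of the 8 genes both aged samples lay above both young samples after TMM scaling, as they did for 23.3% of the genes tested. By total counts without TMM the ages of Mef2c overlapped. Aged replicate 1 (9111 of 83936413 reads) then lay below young replicate 1 (8624 of 77661766 reads). Pax7, counted among the 4 and among the 6 genes, entered the test through its aged samples. The smallest p that an exact permutation test, two-sided, can give with 2 samples per age is 0.333, and the p-values given rest on the spread that the tools estimate across genes.

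**Figure D1:**
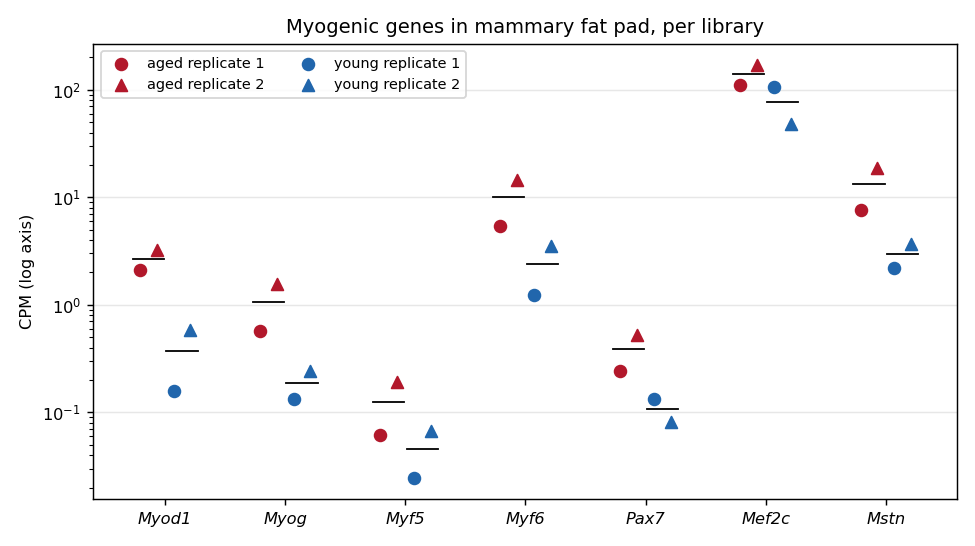
Level of each gene in CPM on a log axis, 1 point per library (red aged, blue young, circle replicate 1, triangle replicate 2) and black bars at the mean of each age. The aged points lie above the young points for Myod1, Myog, Myf6, Pax7, Mef2c and Mstn but not for Myf5, and Mymk, at 0 reads in 2 libraries, is not drawn. For Mef2c the ages overlap by total counts without TMM.

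Among the commitment factors, Myod1 was the clearest. Myod1 (ENSMUSG00000009471, GRCm38 chromosome 7, 46376474 to 46379099, plus strand) was at 2.09 and 3.26 CPM in the aged samples and at 0.159 and 0.583 CPM in the young samples. Young replicate 1, with 13 reads, was the lowest, and aged replicate 2, with 290 reads, was the highest. The log2 fold change (aged over young) was 2.85 (standard error, SE, 0.76, edgeR adjusted p = 0.417, DESeq2 adjusted p = 0.00749), which corresponds to a 7.21-fold higher mean CPM. Under DESeq2 it was called without young replicate 1 (adjusted p = 0.0144) and without young replicate 2 (adjusted p = 8.22e-07) but not without aged replicate 1 (adjusted p = 0.218) or without aged replicate 2 (adjusted p = 0.719).

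Myf5 (ENSMUSG00000000435, chromosome 10, 107482908 to 107486134, minus strand), the other commitment factor, was close to the limit of detection. It had 5 and 17 reads in aged MFP against 2 and 5 reads in young MFP, or 0.0611, 0.191, 0.0244 and 0.0678 CPM in that order. The ages overlapped, since aged replicate 1 lay below young replicate 2. Without the filter on low counts its log2 fold change was 1.43 with a standard error of 1.01 (edgeR adjusted p = 0.717). Myf6 lies 6718 bases from Myf5 on the same strand of chromosome 10 and was read at a much higher level per length.

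Of the differentiation factors, Myf6 was the more abundant and Myog the rarer. Myf6 (ENSMUSG00000035923, chromosome 10, 107492853 to 107494737, minus strand) was at 5.44 and 14.5 CPM in aged MFP against 1.24 and 3.55 CPM in young MFP. The aged samples differed from each other by more than aged replicate 1 differed from young replicate 2. Its log2 fold change was 2.05 (SE 0.76, edgeR adjusted p = 0.477, DESeq2 adjusted p = 0.0903). Myog (ENSMUSG00000026459, chromosome 1, 134289989 to 134292548, plus strand) was at 0.575 and 1.56 CPM in aged MFP against 0.134 and 0.244 CPM in young MFP, from 47, 139, 11 and 18 reads. The ages did not overlap, and aged replicate 2 stood far above the other 3. Its log2 fold change was 2.49 (SE 0.70, edgeR adjusted p = 0.426, DESeq2 adjusted p = 0.066).

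Pax7, the satellite cell gene (ENSMUSG00000028736, chromosome 4, 139737062 to 139833528, minus strand), was read in every library at a low level. It had 20 and 47 reads in aged MFP against 11 and 6 reads in young MFP, or 0.245, 0.528, 0.134 and 0.0813 CPM. The aged samples lay above the young samples, and here young replicate 1 was the higher of the young samples, unlike for Myod1, Myog, Myf6 and Mstn. Its log2 fold change was 1.82 (SE 0.60, edgeR adjusted p = 0.46, DESeq2 adjusted p = 0.378). Pax7 entered the test through its aged samples, as only 1 of its young samples reached the read minimum.

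Mstn (ENSMUSG00000026100, chromosome 1, 53061640 to 53068079, plus strand) was at 7.58 and 18.9 CPM in aged MFP against 2.21 and 3.69 CPM in young MFP. Its lowest aged value was above its highest young value, and the aged samples again differed widely from each other. The log2 fold change was 2.17 (SE 0.58, edgeR adjusted p = 0.417, DESeq2 adjusted p = 0.00858), a 4.49-fold higher mean CPM. Under DESeq2 its adjusted p was 0.722 without aged replicate 2, 0.00263 without aged replicate 1, 0.0246 without young replicate 1 and 0.000365 without young replicate 2.

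Mymk (ENSMUSG00000009214, chromosome 2, 27061636 to 27072179, minus strand) had 0 and 3 reads in aged MFP against 2 and 0 reads in young MFP. No library was above 3 reads, so no fold is given, and 0 reads allow a level of up to 0.0367 CPM in aged replicate 1 and 0.0407 CPM in young replicate 2. Mymx, which encodes the partner of myomaker in fusion, had 0 reads in all 4 libraries.

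The 2 young samples differed widely for Mef2c. Its mean per length was the highest of the 8 genes in both ages, though it overlapped with Myf6 in aged MFP. Mef2c (ENSMUSG00000005583, chromosome 13, 83504034 to 83667080, plus strand) was at 111 and 171 CPM in aged MFP against 105 and 48.5 CPM in young MFP. Young replicate 1 was nearly at the level of aged replicate 1, and young replicate 2 was far lower. The log2 fold change was 0.88 (SE 0.46, edgeR adjusted p = 0.535, DESeq2 adjusted p = 0.428). Without young replicate 1 it was 1.54, with an adjusted p of 0.299 from edgeR and 0.000519 from DESeq2, and without young replicate 2 it was 0.42, with an adjusted p of 0.451 from edgeR and 0.538 from DESeq2. Young replicate 1 is the library with the most B cell RNA. The 4 B cell markers summed there to 313 CPM, against 1.87 CPM in young replicate 2. In aged replicates 1 and 2 they summed to 2.96 and 41.1 CPM. Endothelium is another cell type in which Mef2c acts. Its 5 markers summed to 655 and 483 CPM in aged MFP against 525 and 514 CPM in young MFP. The ages overlapped for all 5. The part of B cell, endothelial, muscle or other RNA in the level of Mef2c was not tested.

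**Figure D2:**
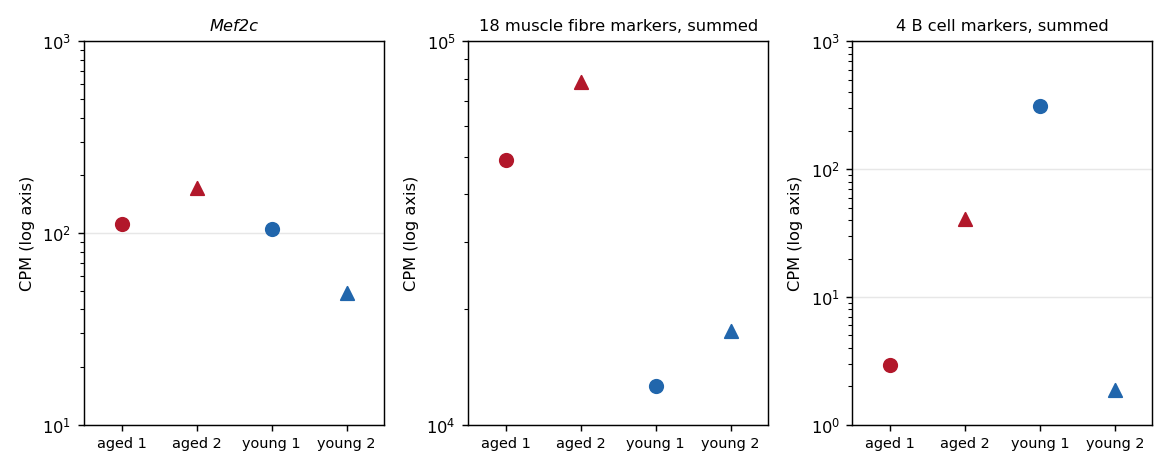
CPM on log axes in each library (red aged, blue young) for Mef2c, for the sum of 18 muscle fibre markers and for the sum of 4 B cell markers. The fibre markers separate the ages, at 48937 and 78589 against 12648 and 17551 CPM, the B cell markers peak in young replicate 1 at 313 CPM, and Mef2c is nearly as high in young replicate 1 (105 CPM) as in aged replicate 1 (111 CPM).

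Levels of different genes were compared per length, as CPM per kilobase of annotated exon. In aged MFP the order was Mef2c at 8.99 ± 2.68, Myf6 at 7.88 ± 5.05, Mstn at 4.89 ± 2.96, Myod1 at 1.44 ± 0.443 and Myog at 0.714 ± 0.466 CPM per kilobase (SD, n = 2). Pax7 at 0.0659 ± 0.0342, Myf5 at 0.0605 ± 0.0441 and Mymk at 0.0112 ± 0.0158 followed. Neighbours whose aged samples overlapped were Mef2c and Myf6, Myf6 and Mstn, and Pax7 and Myf5, while Mstn lay above Myod1, Myod1 above Myog and Myog above Pax7 in both samples. In young MFP the order of the upper 5 genes was the same, with Mef2c at 4.89 ± 2.55, Myf6 at 1.90 ± 1.29, Mstn at 1.09 ± 0.387, Myod1 at 0.199 ± 0.161 and Myog at 0.127 ± 0.0519 CPM per kilobase (SD, n = 2). There Myf6 overlapped with Mstn, and Myod1 with Myog, while Myf5 at 0.0221 ± 0.0147 and Pax7 at 0.0184 ± 0.00639 overlapped with each other. Titin (Ttn), a structural protein of the fibre shown only as a scale, was at 213 ± 43.1 in aged and 50.1 ± 7.64 CPM per kilobase in young MFP (SD, n = 2).

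Because the fibre markers differed between the ages, each gene was also set against them, as reads per 1000000 reads of the 18 markers. For Myf6 this gave 111 and 184 in aged MFP against 98.4 and 202 in young MFP, and for Mstn 155 and 240 in aged MFP against 175 and 210 in young MFP. On this scale the ages overlapped for both genes, and the mean log2 values differed by 0.02 for Myf6 (pooled SD 0.63) and 0.01 for Mstn (pooled SD 0.34). Myog was at 11.7 and 19.9 in aged MFP against 10.6 and 13.9 in young MFP, with overlap, a log2 difference of 0.29 (pooled SD 0.42). Pax7 was at 4.998 and 6.72 in aged MFP against 10.6 and 4.63 in young MFP, also with overlap, a log2 difference of -0.34 (pooled SD 0.61). Myf5 was at 1.25 and 2.43 in aged MFP against 1.93 and 3.86 in young MFP, and these values rest on 2 to 17 reads.

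Myod1 and Mef2c were the genes whose ages did not overlap on this scale. Myod1 was at 42.7 and 41.4 in aged MFP against 12.5 and 33.2 in young MFP, a log2 difference of 1.01 (pooled SD 0.68). Mef2c went the other way, at 2277 and 2175 in aged MFP against 8318 and 2762 in young MFP, a log2 difference of -1.11 (pooled SD 0.80). No test was made on these ratios, and the direction of Mef2c, Pax7 and Myf5 is the opposite of that in CPM. The Myod1 ages overlapped when the mean log2 CPM of the 18 markers was used in place of their sum, with a log2 difference of 0.61 (pooled SD 1.09). With that mean the log2 difference was -0.13 for Myog, -0.32 for Myf6 and -0.32 for Mstn, each with overlap and smaller than its pooled SD. The difference was larger than its pooled SD for Pax7 (-0.79, pooled SD 0.77), Myf5 (-1.32, pooled SD 1.04) and Mef2c (-1.43, pooled SD 0.71). Of these only Mef2c did not overlap. The fibre types also differed between libraries, since Myh2, a myosin of fast oxidative fibres, was at 578 CPM in aged replicate 1 against 2.16 CPM in aged replicate 2 and 1.15 and 1.06 CPM in the young samples.

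**Figure D3:**
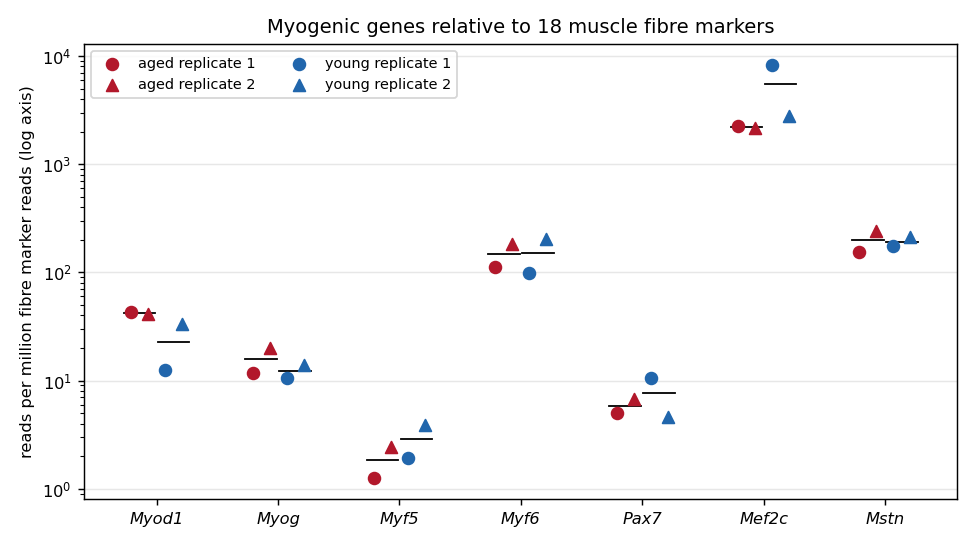
Level of each gene in reads per 1000000 reads of 18 muscle fibre markers, on a log axis, 1 point per library (red aged, blue young, circle replicate 1, triangle replicate 2) with black bars at the mean of each age. Myf6, Mstn, Myog, Pax7 and Myf5 overlap between the ages, Myod1 lies higher in aged MFP (42.7 and 41.4 against 12.5 and 33.2) and Mef2c lower (2277 and 2175 against 8318 and 2762). Most of all genes tested are lower in aged MFP when scaled to the fibre markers.

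The genes around this programme were read from lists grouped by role. The 6 genes tested of the 8 had a median log2 fold change of 2.11, beside 2.12 for the 18 fibre markers and -0.04 for all genes tested. The median of the members was 1.27 without aged replicate 2. It was 2.17 with at least 10 counts in every sample, where Pax7 was not tested. Of 16 further satellite cell genes 14 were tested, with a median of 0.32. For 5 of these the ages did not overlap, with aged MFP higher, as for 23.3% of all genes tested. Mean CPM of the 14 in aged MFP ran from 0.263 for Chodl to 228 for Notch3, beside 0.386 for Pax7. The cells of the pad that gave this RNA were not told apart. Cdh15 (M-cadherin), the adhesion protein between satellite cell and fibre, had the largest difference. It was at 5.38 and 8.39 CPM in aged MFP against 0.61 and 0.921 CPM in young MFP, which gave a log2 fold change of 3.17 (SE 0.42, edgeR adjusted p = 0.36, DESeq2 adjusted p = 1.16e-09). Ncam1, a surface protein of satellite cells and nerve, came next at 0.62 (SE 0.39, edgeR adjusted p = 0.567), and Gm11149 overlaps it on the other strand. Cdh15 was the only gene of the 14 that DESeq2 called, beside the 3.24% of all genes that it called higher, and 0 were called by edgeR. Pax3, the relative of Pax7, and Calcr, the calcitonin receptor of quiescent satellite cells, were not tested. Pax3 had 5 and 17 reads in aged MFP against 4 and 6 in young MFP, and Calcr 3 and 10 in aged MFP against 2 and 1 in young MFP.

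All 18 partners and inhibitors of the myogenic factors were tested, with a median log2 fold change of 0.85, and 9 were higher in aged MFP at an unadjusted p under 0.05, beside 7.24% of all genes. DESeq2 called 8 of the 18 higher and 0 lower in aged MFP, beside 3.24% of all genes called higher, and edgeR called 0. Vgll2, a cofactor of TEAD proteins in muscle, was at 8.22 and 9.06 CPM in aged MFP against 0.854 and 1.25 CPM in young MFP, which gave a log2 fold change of 3.04 (SE 0.32, edgeR adjusted p = 0.36). Its replicates were close to each other in both ages. Among the other genes called by DESeq2 were Six4, a homeobox factor upstream of the myogenic factors (log2 fold change 1.503), Pitx3 (2.56), the RNA-binding protein gene Rbm24 (2.41), the muscle methyltransferase gene Smyd1 (1.99) and Mef2a (0.66). Pitx3 overlaps Elovl3 and Mef2a overlaps Lysmd4 on the other strand. The E protein genes Tcf3 and Tcf12 had log2 fold changes of -0.27 and -0.08, and the inhibitor genes Id1, Id2 and Id3 had 0.02, -0.16 and 0.04 (adjusted p from 0.574 to 0.973 in edgeR).

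Of 14 genes of fusion and early differentiation, 11 were tested, with a median log2 fold change of 0.57. In DESeq2, 3 were called higher and 1 was called lower with age, where over all 21984 genes 713 were called higher and 156 lower, and edgeR called 0. Chrna1, the alpha subunit of the muscle acetylcholine receptor, was at 0.722 and 1.76 CPM in aged MFP against 0.0732 and 0.0813 CPM in young MFP, which gave a log2 fold change of 3.98 (SE 0.65, edgeR adjusted p = 0.36). The embryonic myosin gene Myh3 had 135 and 34 reads in aged MFP against 10 and 0 reads in young MFP, which gave a log2 fold change of 3.99 with a standard error of 1.52 (edgeR adjusted p = 0.485). Aged replicate 1 stood far above aged replicate 2. Chrna1 and Myh3 entered the edgeR test through their aged samples, as 0 young samples of Chrna1 and 1 of Myh3 reached the read minimum. Des, the intermediate filament of muscle, had a log2 fold change of 2.31 and Cav3, the caveolin of muscle, 1.54. Actc1, the actin of heart and developing muscle, was lower in both aged samples, at 0.868 and 1.92 CPM against 7.99 and 4.08 CPM, which gave a log2 fold change of -2.11 (SE 0.59, edgeR adjusted p = 0.421, DESeq2 adjusted p = 0.0172). The neonatal myosin gene Myh8 was highest in young replicate 2, with 229 reads, against 58, 86 and 6 in aged replicate 1, aged replicate 2 and young replicate 1. The receptor subunit genes Chrnd (7 and 21 reads in aged MFP against 0 and 1 in young MFP) and Chrng (1 and 0 against 0 and 2 reads) were not tested.

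The 20 genes of the myostatin pathway were all tested, with a median log2 fold change of 0.29. Trim63, a ubiquitin ligase of muscle atrophy that acts downstream, was at 13.3 and 31.2 CPM in aged MFP against 3.81 and 4.19 CPM in young MFP, which gave a log2 fold change of 2.48 (SE 0.48, edgeR adjusted p = 0.37). Wfikkn2, a secreted antagonist of myostatin, was at 4.12 and 7.03 CPM in aged MFP against 2.07 and 0.989 CPM in young MFP, which gave a log2 fold change of 1.86 (SE 0.53, edgeR adjusted p = 0.426). These were the 2 genes of the pathway called by DESeq2, with adjusted p-values of 8.89e-05 and 0.0258, beside 3.24% of all genes called higher, and edgeR called 0. The receptor genes Acvr2a and Acvr2b, which bind myostatin, had log2 fold changes of 0.64 and 0.68 (adjusted p = 0.461 and 0.499 from edgeR). The antagonist gene Fst had 0.56 (edgeR adjusted p = 0.537), and Gdf11, the closest relative of Mstn, had -0.28 (edgeR adjusted p = 0.85).

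**Figure D4:**
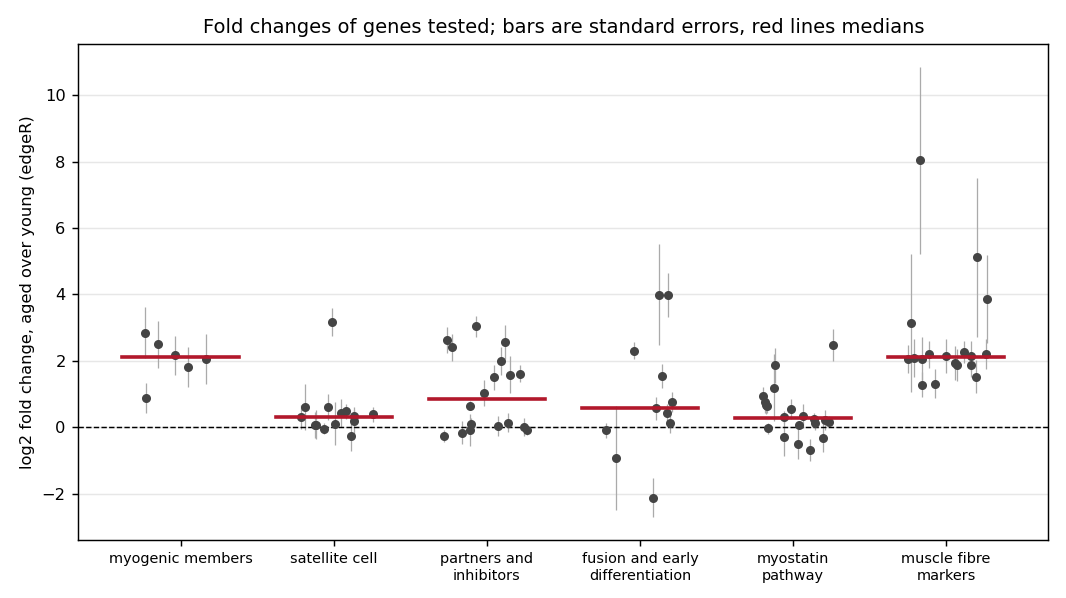
Log2 fold change of aged over young MFP with its standard error for each gene tested, grouped by list, with red lines at the medians (2.11 for the 6 myogenic genes, 0.32, 0.85, 0.57 and 0.29 for the satellite cell, partner, fusion and myostatin lists, and 2.12 for the 18 fibre markers). The dashed line marks no difference, and 0 of the genes drawn passed an adjusted p of 0.05 in edgeR.

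For each of the 6 genes tested, the genes with the most similar profile over the 4 libraries were sought among 16444 genes outside the lists with a mean of at least 1 CPM, by the root mean square difference of their centred log2 CPM. With 4 libraries many genes follow the same order: between 590 genes for Mef2c and 1990 for Myod1 had a Pearson correlation over 0.9 with it, given here only as a description. Nearest to Mstn were Prkag3, with a difference of 0.04, and Jph1, with 0.12. Nearest to Myog were Popdc3 (0.06) and Cacng1 (0.09), and nearest to Myf6 were Abra (0.12) and Tph1 (0.14). Myod1 was nearest to Pld5 (0.09) and Gdap1 (0.13), Pax7 to Capn3 (0.14) and Yipf7 (0.15), and Mef2c to Cysltr2 (0.09) and Atp8a2 (0.09). Prkag3 was at 19.9 and 51.1 CPM in aged MFP against 6.27 and 10.1 CPM in young MFP, while Cysltr2 was at 1.06 and 1.58 CPM in aged MFP against 1.04 and 0.393 CPM in young MFP.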

How the data were processed

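RNA of 4 MFP samples was sequenced from libraries of total RNA depleted of ribosomal RNA that keep the strand. The authors deposited whole-number counts of reads per gene, not normalized and not pooled. The submitters' processing notes name featureCounts, R 3.6.1 and the builds GRCm38 and hg38, while the aligner, annotation release and strand setting are not given in the sources used here, so reads of genes that overlap on opposite strands may not be told apart.

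Samples were grouped by the age in their titles. Counts were analysed with R 4.3.3, edgeR 4.0.16 (filterByExpr, TMM, glmQLFit with its legacy default, glmQLFTest, age as the only term) and DESeq2 1.42.0 on the same 4 samples. A standard error is the log2 fold change divided by the square root of F. Log2 CPM used a prior count of 2, and ratios to fibre markers added 0.5 reads before the logarithm. Whether samples came from separate animals is stated only as biological replicates in the titles. Coordinates and exon lengths are those of GENCODE M21 on GRCm38, which held 55141 of 55487 identifiers. No exon of the 8 genes overlaps an exon of another gene.

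The 8 genes and all lists were chosen with earlier results of these data known. Named were the 8 genes, the 2 largest differences of each list, every list gene called by DESeq2, and the 2 nearest profiles of each tested gene. Some genes that this rule names are not reported here. Pax3, Calcr, Mymx, Chrnd, Chrng, Myh8, Tcf3, Tcf12, Id1, Id2, Id3, Acvr2a, Acvr2b, Fst, Gdf11 and the cell type markers were named after their values were seen. Alternatives were other scalings (including one to the fibre markers), filters and tests, the replicate number as a block and leaving out each sample. A block with crossed numbers and DESeq2 with each sample left out were chosen after seeing the data. Across genes, samples with the same number departed from their group means with a correlation of -0.48, so the numbers were not taken as pairs. The code was tested on simulated counts before use.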

Additional observations from a re-analysis of the deposited data

How the results depend on the processing

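Scaling, filters and single libraries bound what these values carry, and with 2 samples an age the low genes (Myf5, Mymk, Pax7) are limited by reads. The log2 fold changes of the 6 genes tested stayed above 0 under RLE, upper quartile and total count scaling, both other filters, DESeq2, the fit without the legacy method and the blocks. Without the filter and with the legacy method off edgeR called 0 genes, and with at least 10 counts in every sample Pax7 was not tested. DESeq2 called 869 genes and 2 of the 8. Its calls ranged from 138 to 3428 genes and from 0 to 4 of the 8 with each sample left out, lowest without aged replicate 2 and highest without young replicate 2, and were 303 and 1 without aged replicate 1. In edgeR the log2 fold change ranged, with each sample left out, from 2.20 to 4.06 for Myod1, 1.60 to 3.02 for Myog, 1.18 to 3.00 for Myf6, 1.16 to 2.25 for Pax7, 0.42 to 1.54 for Mef2c and 1.36 to 2.66 for Mstn, with 0 genes called each time, where the lone sample of an age is assumed to vary like the other age.

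With the library size set to the fibre marker reads, 19110 genes and 1 of the 8 were called, of which 19036 were lower in aged MFP, as the median of all genes moved to -2.07 on that scale. The log2 fold change was then -0.0268 for Myf6, -0.35 for Pax7 and -1.32 for Mef2c, which was the gene called (edgeR adjusted p = 0.0436), and 0.87, 0.37 and 0.04 for Myod1, Myog and Mstn. The median was 0.00669 for the 6 genes tested, -1.68 for satellite cell genes, -1.25 for partners and inhibitors, -1.41 for fusion genes and -1.72 for the myostatin pathway. By total counts only, the median of all genes moved from -0.04 to -0.22, that of partners and inhibitors was 0.66, that of satellite cell genes 0.14 and that of the myostatin pathway 0.11. With each sample left out the median of the 6 genes tested ranged from 1.27 to 2.78, that of partners and inhibitors from 0.64 to 0.92, and that of the fusion genes from 0.48 to 1.22.

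With the replicate block edgeR called 0 genes and 0 of the 8, with log2 fold changes of 3.07 for Myod1, 2.39 for Myog, 2.08 for Myf6, 1.75 for Pax7, 0.95 for Mef2c and 2.07 for Mstn, and it changed no call. A block that crosses the numbers, chosen after seeing the data because same-numbered samples correlated negatively, also called 0 genes.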

Other observations

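Markers of other cells that could carry these genes were read alongside. Brown adipocytes arise in part from precursors that once expressed Myf5. Ucp1, their uncoupling protein, was lower in both aged samples, at 13.1 and 10.1 CPM against 21.8 and 18.1 CPM in the young samples, which gave a log2 fold change of -0.78 (edgeR adjusted p = 0.432), while Cidea had 0.53 (edgeR adjusted p = 0.512) and Elovl3, which overlaps Pitx3 on the other strand, had 1.95 (edgeR adjusted p = 0.486). The 4 smooth muscle markers overlapped between the ages, and their summed level was 472 and 550 CPM in aged MFP against 257 and 621 CPM in young MFP. The 5 macrophage markers had a median log2 fold change of 0.56, and 3 of them were higher in both aged samples, as were 23.3% of all genes tested. All 5 white adipocyte markers were higher in both aged samples, as were 23.3% of all genes tested, with a median log2 fold change of 0.47. Plin1 and Cidec were barely apart, at 1019 and 541 CPM in aged replicate 2 against 1007 and 540 CPM in young replicate 2. By total counts without TMM the ages overlapped for Plin1, Cidec and Fabp4. DESeq2 called Lep, which encodes leptin, and Adipoq (adjusted p = 0.0157 and 0.0496), beside 3.24% of all genes called higher. In edgeR 0 of the 5 were called.

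The fibre markers were not equal in their differences. Myh4, the myosin of the fastest fibres, was at 7012 and 16393 CPM in aged MFP against 2114 and 3491 CPM in young MFP, with aged replicate 2 highest, as it was for Myod1, Myog, Myf6, Pax7, Mef2c and Mstn. Mb, which encodes myoglobin, and Myh7, the myosin of slow fibres, were instead highest in aged replicate 1, with 7971 and 1986 reads against 891 and 24 reads in aged replicate 2.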
